A study of Mus musculus with 6 samples.

Results

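Syk, Btk, Lyn, Fgr, Fyn, Src, Csk, Blnk and Vav1 encode protein tyrosine kinases and adaptors that relay signals from immune receptors. Their RNA was compared between hippocampal lysate and RNA pulled down with tagged ribosomes, a fraction enriched for RNA of Cx3cr1-expressing cells. The 9 genes were given by name, with earlier results of these data known, and the rule that picks their rows uses no measured value. Rows were found for 8 of the 9 among the 15388 genes of the table, and Fgr was not analysed here. All 8 were among the 15344 genes tested. Of these 8, 7 had more than 20 scaled reads (reads after division by the size factor of their library) in every library of both fractions, and Btk passed that limit through the Positive fraction alone.

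RNA came from the hippocampi of 3 mice, numbered 201, 207 and 208, each of which gave 1 Input and 1 Positive library (n = 3 per fraction). Every animal was Cx3cr1-cre/ERT2+; NuTRAP+, about 3 months old and induced with tamoxifen over 5 days, so genotype, age and induction were shared by both fractions. After recombination, the NuTRAP reporter puts GFP on a ribosomal protein, and in translating ribosome affinity purification (TRAP) the GFP-bearing ribosomes were pulled from the cleared lysate with an antibody to give Positive, while Input was a sample of that lysate before the pull-down. The driver of the Cre, Cx3cr1, is active in microglia and also in macrophages at the borders of the brain, so Positive is not a fraction of microglia alone by design. Males and females were used in the study, and the sex of each animal was not given in the sources used here. The libraries held between 14879734 and 17757918 reads, without molecular identifiers. Microglial markers checked against the label were higher in Positive for 8 of 8 genes, with Cx3cr1 at a log2 fold change of 4.77 and P2ry12 at 4.80. Oligodendrocyte markers were lower for 7 of 7, and neuronal markers were higher for 3 of 8 and lower for 0. Summed scaled reads of the neuronal markers were 131852 to 152464 in Input and 150390 to 181251 in Positive. Those of 7 astrocyte markers were 59220 to 63577 in Input and 57414 to 68628 in Positive. Levels in Positive are thus those of the pull-down as a whole, not of Cx3cr1-expressing cells alone.

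In macrophages and lymphocytes, Src-family kinases such as Lyn, Fgr and Fyn phosphorylate tyrosines in the ITAM, a short motif in the tails of signalling chains such as Tyrobp. Syk docks on the phosphorylated ITAM and phosphorylates adaptors, of which Blnk is one, and these gather Btk, phospholipase C gamma and Vav1, an exchange factor that activates Rac. Csk restrains the Src family by phosphorylating the tyrosine of its inhibitory tail. Microglia use this relay downstream of receptors such as Trem2 and the Fc receptors, whereas Src and Fyn are also well known in neurons, and Fyn in oligodendrocytes.

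RefSeq promoter windows, the 250 bases upstream of an annotated start in the mouse build GRCm38.p6, were found for 8 of the 9 genes, and Lyn had none in the table used. The windows were searched on both strands for GAGGAA, the core of the sequences that the myeloid factor PU.1 is known to bind. Of 32851 windows of this length, 23.3% held it. Windows of 4 genes are printed because these genes span the range of the results. Vav1 and Btk had the largest enrichments, Csk an intermediate one, and Fyn was not called. The Vav1 window (chr17:57278850-57279099, plus strand) ends at the base before the start of the gene in the table. The Btk window is chrX:134583141-134583390 on the minus strand, and the Csk window is chr9:57653632-57653881 on the minus strand. The Fyn stretch (chr10:39369549-39369763, plus strand) holds the 215 bases of its window that come before the first annotated exon base within that window. It lies inside Fyn as placed in the table, which starts at 39368855. The Btk window likewise lies inside Btk as placed in the table, which on the minus strand starts at 134583570. Each is written 5′ to 3′ on the strand of the gene, with GAGGAA in capitals.
Vav1: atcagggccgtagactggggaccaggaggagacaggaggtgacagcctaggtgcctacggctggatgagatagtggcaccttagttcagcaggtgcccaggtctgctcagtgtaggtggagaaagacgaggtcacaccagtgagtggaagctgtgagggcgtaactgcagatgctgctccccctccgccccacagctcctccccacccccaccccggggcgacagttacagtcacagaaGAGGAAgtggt
Btk: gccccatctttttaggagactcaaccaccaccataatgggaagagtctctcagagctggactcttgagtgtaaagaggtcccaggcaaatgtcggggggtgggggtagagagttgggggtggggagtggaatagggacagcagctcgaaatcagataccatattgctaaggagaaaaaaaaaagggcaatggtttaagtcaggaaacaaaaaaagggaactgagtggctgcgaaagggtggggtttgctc
Csk: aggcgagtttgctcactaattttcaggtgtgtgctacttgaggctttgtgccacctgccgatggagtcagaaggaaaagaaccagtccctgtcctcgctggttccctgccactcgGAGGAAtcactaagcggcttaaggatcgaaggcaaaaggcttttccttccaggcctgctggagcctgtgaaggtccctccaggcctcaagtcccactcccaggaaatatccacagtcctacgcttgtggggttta
Fyn: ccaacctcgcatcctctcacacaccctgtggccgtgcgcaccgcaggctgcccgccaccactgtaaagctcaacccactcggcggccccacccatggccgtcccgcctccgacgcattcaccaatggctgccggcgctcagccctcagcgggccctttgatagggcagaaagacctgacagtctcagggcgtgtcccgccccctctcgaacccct
The Vav1 window held 1 match, whose first base lay 11 bases upstream of the start, and the Csk window shown held 1 match at 135 bases. A second Csk window, at another annotated start, held 2 matches, at 183 and 67 bases. No match was present in the windows of Btk, Fyn, Blnk and Fgr, the Src window held 1 match at 108 bases, and of the 2 Syk windows 1 held a match at 9 bases. The letters were therefore seen in a called and in an uncalled gene, and a match is a description of the window, not a site. The windows also differed in CpG, a C followed by a G, which is common in promoters of widely expressed genes, with 40 in Src, 27 and 2 in those of Syk, 21 in Fyn, 7 and 16 in those of Csk, 9 in Fgr, 7 in Vav1, 6 in Blnk and 3 in Btk. The median over all windows was 6, with quartiles of 2 and 16. Annotated exons covered all 250 bases of the Blnk window and of the Syk window with 27 CpG. They covered 177 bases of the Src window, 35 of the Fyn window and 29 of the other Syk window. The counts in these windows are therefore not of upstream sequence alone.

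The question was which of these signalling genes were enriched on the tagged ribosomes. Syk, Btk, Lyn, Csk, Blnk and Vav1 were higher in Positive, 6 of the 8, while Fyn and Src did not pass the test and 0 were lower (quasi-likelihood test of edgeR at an adjusted p-value below 0.05). Over all genes tested, 24% were called higher and 22% lower, 46% in either direction. Enrichment over 8-fold with a call was seen for 5 of the 8 genes, against 2.69% of all genes tested. Btk is among the 6 and among the 5, and it passed the read limit through Positive alone, which favours a higher call. The median log2 fold change of the 8 genes was 3.59, and that of all genes tested was -0.01. In 6 of the 8 every Positive library was above every Input library, an order that 29% of all genes showed. Counting both directions, and so with Fyn, 7 of the 8 had fractions that did not overlap, against 56.5% of all genes. In bulk RNA of this kind, fewer cells of a type and less RNA per cell cannot be told apart.

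**Figure D1:**
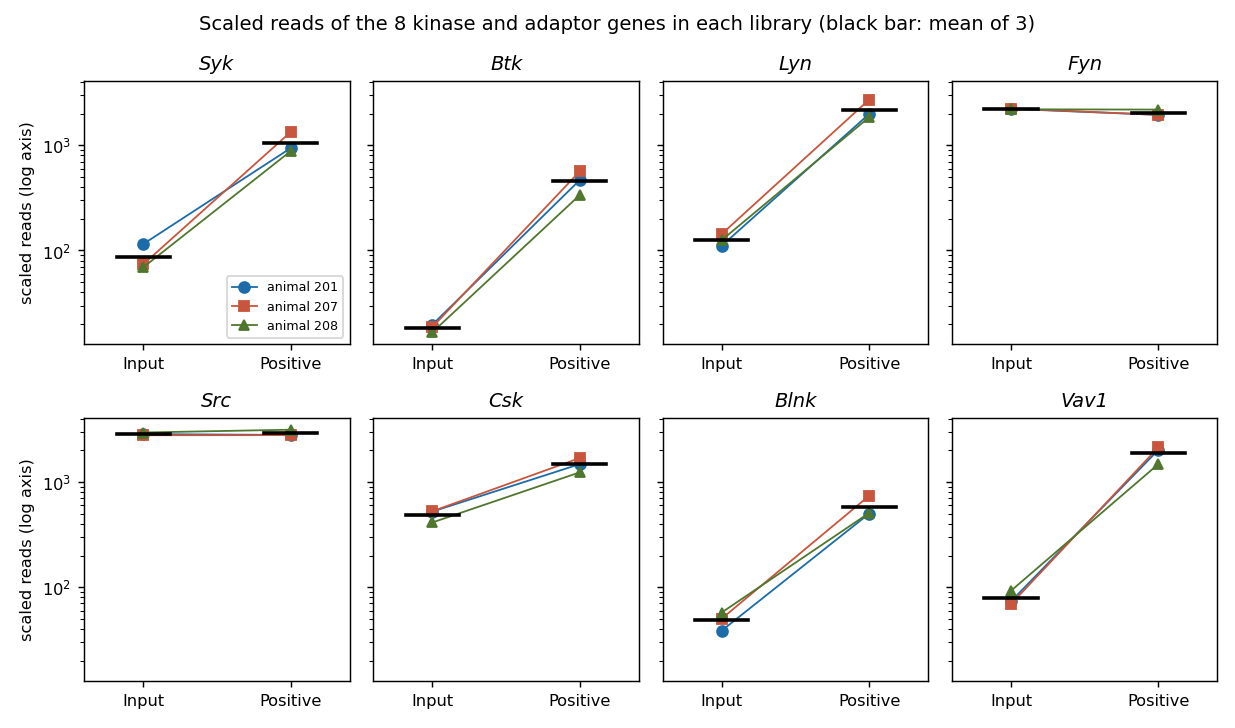
Scaled reads of each of the 8 genes (vertical log axis) in the Input and Positive libraries, with a line joining the 2 libraries of an animal and a black bar at the mean of 3. Syk, Btk, Lyn, Csk, Blnk and Vav1 climb in every animal, whereas Fyn and Src stay between 1942 and 3136 scaled reads in all 6 libraries.

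Lyn, the Src-family kinase best known for activating and restraining receptors of B cells and myeloid cells, lies on chromosome 4 from 3678115 to 3813122 on the plus strand (mm10). Its scaled reads were 111, 143 and 125 in the Input libraries of animals 201, 207 and 208. In the Positive libraries of the same animals they were 1981, 2712 and 1846. The fractions were far apart, with each Positive library well above the highest Input library. Lyn thus had a log2 fold change of 4.10 ± 0.16 (SE, n = 3 per fraction), a 17.2-fold enrichment, with an edgeR adjusted p-value of 5.43e-10. Only 185 of the 15344 genes tested had a larger log2 fold change.

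Fyn, a Src-family kinase of neurons, oligodendrocytes and T cells, lies on chromosome 10 from 39368855 to 39565381 on the plus strand. Scaled reads of Fyn were 2215, 2229 and 2194 in Input and 1942, 1945 and 2181 in Positive. All 3 Positive libraries lay below all 3 Input libraries, which 27.6% of all genes did, but the Positive library of animal 208 lay just below its own Input. The fitted log2 fold change was -0.13 ± 0.08 (SE), with a 95% interval from -0.28 to 0.02 and an adjusted p-value of 0.184 (edgeR). Fyn RNA in Positive was thus 91.4% of its Input level, and this difference was not called. The call depended on scaling and on 1 library, since Fyn was lower under total count scaling (log2 fold change -0.21, edgeR adjusted p-value 0.0380) and without the Positive library of animal 208 (-0.19, adjusted p-value 0.0426). Per animal, the log2 ratio of Fyn was -0.19 in 201, -0.20 in 207 and -0.01 in 208. Over the same animals the median log2 ratio of 8 neuronal markers was 0.06, 0.14 and 0.34, and that of 7 oligodendrocyte markers was -2.38, -2.29 and -2.68. The part of either cell type in the level of Fyn was not tested.

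Src, the founding member of the family and a kinase with a neuronal splice form, lies on chromosome 2 from 157418444 to 157471862 on the plus strand. In Src the scaled reads were 2849, 2777 and 2949 in Input and 2794, 2785 and 3136 in Positive. The fractions overlapped, and Src had the smallest log2 fold change in size of the 8 genes, 0.02 ± 0.08 (SE, edgeR adjusted p-value 0.829). The 95% interval ran from -0.13 to 0.17, and the sign turned to -0.05 under total count scaling and to -0.03 without the Positive library of animal 208. Src and Fyn were thus the most abundant of the 8 genes in Input and remained abundant in Positive.

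Of the relatives described, neither passed the test. Yes1, a widely expressed kinase, had a log2 fold change of 0.33 ± 0.18 (SE, edgeR adjusted p-value 0.155). Lck, the Src-family kinase of T cells, passed the read limit through Input alone, with 22.9 ± 1.66 scaled reads there and 14.9 ± 5.405 in Positive, with a log2 fold change of -0.62 ± 0.34 (SE, edgeR adjusted p-value 0.150). Blk and Frk were not analysed here.

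**Figure D2:**
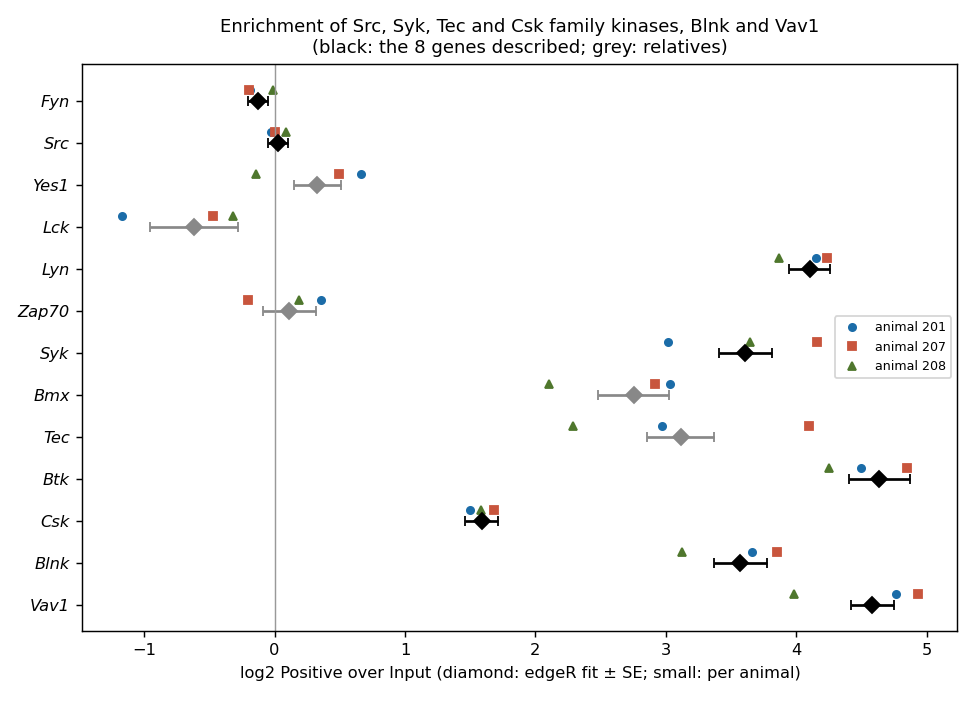
Log2 Positive over Input (horizontal axis) for the 8 genes (black) and for related kinases (grey). Diamonds with bars are the edgeR log2 fold change ± SE, and small symbols are the log2 ratios of each animal. Btk, Vav1 and Lyn lie above 4, while Fyn, Src, Yes1, Lck and Zap70 lie between -0.62 and 0.33.

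The make-up of the RNA of 5 Src-family kinases was computed within each library as the share of reads per kilobase over Fyn, Src, Yes1, Lck and Lyn. A share within a library does not depend on the scaling between libraries, but a higher level of 1 kinase lowers the shares of the others. Src was the largest share of Input with 53.8, 52.5 and 54.2% in animals 201, 207 and 208, and took 39.9, 35.7 and 42.2% of Positive. Fyn followed with 41.9, 42.2 and 40.4% of Input and 27.8, 24.97 and 29.4% of Positive. Both shares were lower in every Positive library than in any Input library, although the level of neither gene was called different. Lyn went from 2.25, 2.90 and 2.48% of Input to 30.4, 37.3 and 26.6% of Positive, a mean of 2.54 ± 0.33% against 31.4 ± 5.41% (SD, n = 3). The shares follow from the fold changes of the same genes given above and are a description, with no test. The share of Yes1 overlapped between fractions (1.80 ± 0.38% and 1.62 ± 0.17%). Fyn, Src and Yes1 together held 96.8 ± 0.34% of the RNA of the 5 kinases in Input and 68.3 ± 5.38% in Positive.

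**Figure D3:**
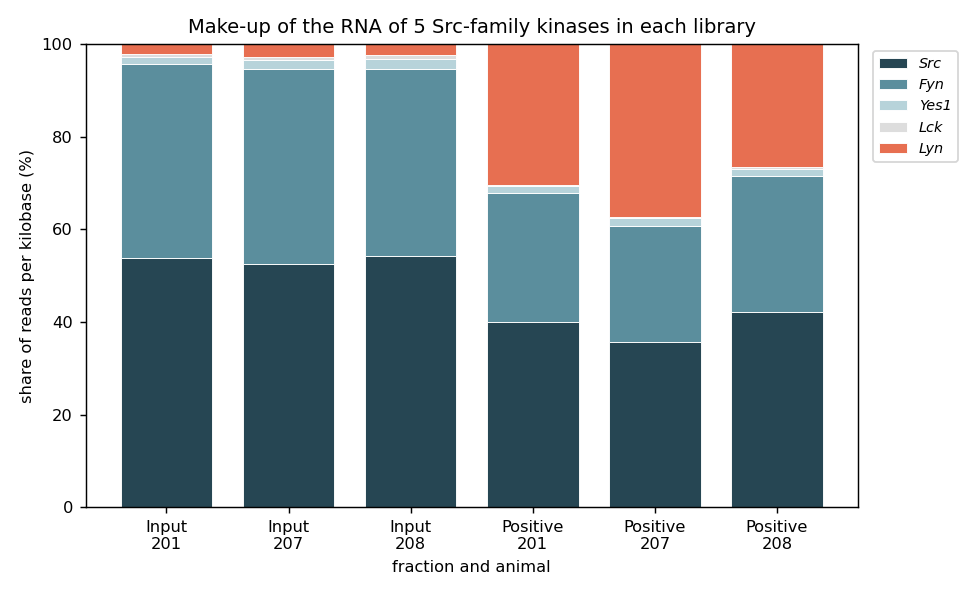
Share of reads per kilobase (vertical axis, %) taken by each of 5 Src-family kinases in each library, stacked to 100. Src, Fyn and Yes1 fill 96.5 to 97.1% of each Input library, and Lyn fills 26.6 to 37.3% of each Positive library.

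Csk, the kinase that switches Src-family members off, lies on chromosome 9 from 57626646 to 57653631 on the minus strand. Input libraries held 523, 527 and 412 scaled reads of Csk, and Positive libraries held 1477, 1689 and 1235. The fractions did not overlap, and the enrichment was the most uniform over animals among the 6 genes called higher, with log2 ratios of 1.496, 1.68 and 1.58. Its log2 fold change was 1.59 ± 0.13 (SE, edgeR adjusted p-value 4.46e-07), or 3.01-fold, which was well under that of Lyn. On the TPM scale, in which reads are divided by exonic length and by the library's sum, the summed level of these 5 kinases was 297 ± 5.71 in Input, compared with 407 ± 18.8 in Positive (SD, n = 3). The level of Csk relative to that sum was 0.107 ± 0.016 in Input and 0.231 ± 0.032 in Positive, with no overlap. For the sum and for this ratio the exact two-sided permutation p was 0.1, the smallest that 3 against 3 libraries can give. Matk, the other member of the Csk family and a kinase of neurons and blood cells, was lower in Positive with a log2 fold change of -0.32 ± 0.10 (SE, edgeR adjusted p-value 0.0164), a call lost without the Input library of animal 207 (adjusted p-value 0.0768). Csk took 11.2 ± 1.14% of the Csk and Matk reads per kilobase in Input and 32.3 ± 3.04% in Positive.

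Syk, the kinase that docks on phosphorylated ITAMs, lies on chromosome 13 from 52583173 to 52648792 on the plus strand. Scaled reads of Syk were 115, 73.6 and 69.0 in Input and 937, 1332 and 877 in Positive. No library of one fraction reached the other, but the Input library of animal 201 stood above the other Input libraries and gave the lowest log2 ratio, 3.02, against 4.16 in 207 and 3.65 in 208. Syk had a log2 fold change of 3.61 ± 0.20 (SE, edgeR adjusted p-value 1.59e-08), a 12.2-fold enrichment. Zap70, the Syk-family kinase of T cells, averaged 94.5 ± 14.0 scaled reads in Input against 103 ± 17.9 in Positive (SD, n = 3), and it was not called (log2 fold change 0.11, edgeR adjusted p-value 0.677). Of the reads per kilobase of this pair, Syk took 22.7 ± 7.84% in Input and 75.9 ± 6.82% in Positive.

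Btk, a Tec-family kinase that activates phospholipase C gamma, lies on the X chromosome from 134542336 to 134583570 on the minus strand. Its scaled reads were 19.7, 18.7 and 16.7 in Input and 468, 566 and 337 in Positive. The Input values sat near the read limit, and every Positive library was far above them. The log2 fold change was 4.64 ± 0.23 (SE, edgeR adjusted p-value 5.48e-09), the largest of the 8 genes, and only 69 genes of the table had a larger one. With under 20 scaled reads in each Input library, and fewer fragments if both mates of a pair were counted, its ratio leaned on the pseudocount, and the mean log2 ratio over animals was 4.53 with a pseudocount of 1 and 4.01 with 10. The other Tec-family kinases tested were also higher. Tec, the member that gave the family its name, had a log2 fold change of 3.11 ± 0.26 (edgeR adjusted p-value 6.34e-07), with log2 ratios of 2.97, 4.10 and 2.29 in the 3 animals. Bmx had one of 2.75 ± 0.27 (adjusted p-value 4.06e-06) and, like Btk, passed the read limit through Positive alone. Txk, known from T cells, was not analysed here.

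Blnk, the adaptor that gathers Btk and phospholipase C gamma after Syk has phosphorylated it and is best known from B cells, lies on chromosome 19 from 40928927 to 40994535 on the minus strand. Blnk had 38.6, 50.2 and 57.5 scaled reads in the Input libraries, whereas the Positive libraries held 499.8, 739 and 508. The fractions were separate, and the Positive library of animal 207 stood above the other 2. Its log2 fold change was 3.57 ± 0.20 (SE, edgeR adjusted p-value 1.60e-08), or 11.9-fold. Lcp2, its relative that serves T cells and myeloid cells and was picked after its values were seen, had a log2 fold change of 4.31 ± 0.26 (edgeR adjusted p-value 2.57e-08). Of the reads per kilobase of the pair, Blnk took 54.0 ± 9.10% in Input and 41.2 ± 5.17% in Positive.

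Vav1, an exchange factor for Rac found mainly in blood-derived cells, lies on chromosome 17 from 57279100 to 57328031 on the plus strand. Scaled reads of Vav1 were 73.4, 69.1 and 92.5 in Input and 2021, 2137 and 1481 in Positive. Positive exceeded Input in each animal by a log2 ratio of 4.76, 4.93 and 3.99 in 201, 207 and 208. Vav1 had a log2 fold change of 4.58 ± 0.16 (SE, edgeR adjusted p-value 3.57e-10), a 24.0-fold enrichment. Its relatives Vav2 and Vav3, named after their values were seen, differed from it, with log2 fold changes of 1.53 (adjusted p-value 5.76e-07) and 0.10 (0.66, not called; edgeR for both). Of the reads per kilobase of the 3 Vav genes, Vav1 took 25.8 ± 2.07% in Input and 78.6 ± 1.81% in Positive (SD, n = 3).

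The order of the 8 genes by TPM, a scale per length on which levels of different genes can be compared, changed between the fractions. In Input, Src (158.8 ± 4.84) and Fyn (123 ± 1.38) were followed by Csk at 31.7 ± 4.17 (mean ± SD, n = 3). Lyn at 7.55 ± 1.02 and Vav1 at 5.16 ± 0.83 came next, and Syk (2.22 ± 0.64), Blnk (1.98 ± 0.40) and Btk (1.42 ± 0.11) were lowest. Neighbours in that order did not overlap, except for Syk and Blnk. In Positive, Src (159.6 ± 11.8) still came first, but Lyn (128 ± 26.1) and Vav1 (122 ± 22.1) had the next highest means, with Fyn at 111 ± 8.11 and Csk at 94.2 ± 13.8. Btk (34.8 ± 8.50), Syk (26.9 ± 6.04) and Blnk (23.3 ± 5.19) formed the lower end. In Positive only Csk and Btk, of the neighbours in the order, did not overlap. In Positive, 5 genes thus had means between 94.2 and 159.6 TPM and the other 3 lay below them, whereas in Input Src and Fyn stood apart from the rest. TPM leans on the annotated length, and the exonic length of Syk was 9362 bases against 3149 to 5991 for the other 7 genes.

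Among the 6 genes called higher, the library order was alike. Animal 207 had the highest Positive library and the highest log2 ratio for 6 of 6 genes. Animal 208 had the lowest Positive library for 5 of 6 and the lowest log2 ratio for 4 of 6. The median log2 ratio of the 8 microglial markers in the same animals was 4.54 in 201, 4.79 in 207 and 4.30 in 208, so 207 was highest and 208 lowest there too. The part of the pull-down's yield of microglial RNA in the order was not tested.

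The rest of the pathway was taken from 10 lists holding 100 genes. Of these, 85 were tested, 66 were higher, 2 were lower and 17 were not called, with a median log2 fold change of 2.12 against -0.01 over all genes. For comparison with these counts and those of each list and marker set below, 24% of all genes tested were called higher and 22% lower. Of the 85, 69 passed the read limit in both fractions, 51 of which were higher, and 15 passed through Positive alone. The 2 lower genes were Matk and Rac3, and both calls depended on single libraries, as given with each gene. Without Positive 208, Nck2 was also called lower (log2 fold change -0.33, edgeR adjusted p-value 0.00817). Prkcb was called higher without Positive 201 (0.29, adjusted p-value 0.0342) and with the animal as a block (0.22, adjusted p-value 0.0285).

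**Figure D4:**
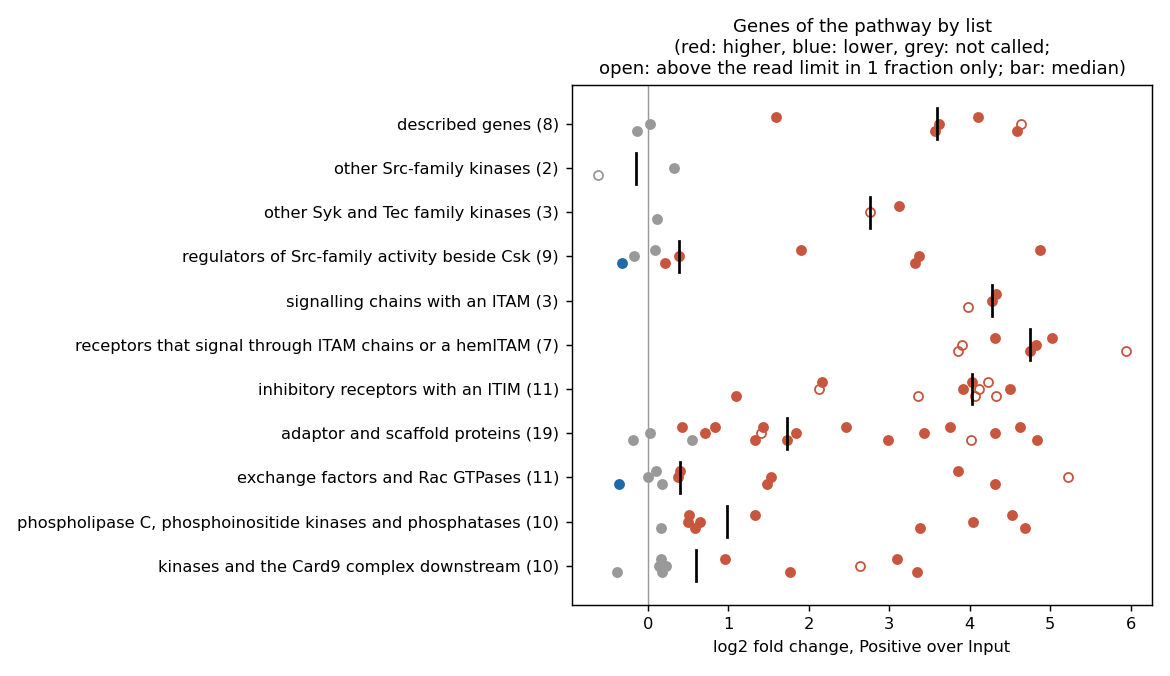
Log2 fold change, Positive over Input (horizontal axis), of the 8 genes and of each tested gene of 10 pathway lists, 1 point per gene, with the number tested in brackets. Red points were higher, blue lower and grey not called, open points were above the read limit in 1 fraction only, and bars are medians. The ITAM and ITIM lists lie wholly to the right of 0 with medians of 4.27, 4.75 and 4.03, whereas the Src-family regulators and the Rac and lipid lists spread from near 0 to above 4.

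At the receptor end, every tested gene was higher. The 3 ITAM chains tested had a median log2 fold change of 4.27. Tyrobp, the chain of Trem2, averaged 137 ± 9.61 scaled reads in Input against 2755 ± 585 in Positive (SD, n = 3). Its log2 fold change was 4.32 ± 0.15 (SE, edgeR adjusted p-value 3.57e-10). Fcer1g, the common chain of the Fc receptors, had a log2 fold change of 4.27 ± 0.16 and Cd79b, a chain of the B-cell receptor, one of 3.97 ± 0.44. Cd79b averaged 4.05 ± 2.12 scaled reads in Input against 64.6 ± 22.4 in Positive, far under Tyrobp. Of the receptors that signal through such chains or through a partial ITAM (hemITAM), 7 of 7 were higher with a median of 4.75. Siglech (4.75 ± 0.15), Trem2, a receptor for lipids (4.31 ± 0.14), and the Fc receptors for IgG Fcgr3 (4.82 ± 0.15) and Fcgr1 (5.02 ± 0.20) were the most abundant. The inhibitory receptors with an ITIM, which recruit phosphatases in place of Syk, were higher for 11 of 11 with a median of 4.03. Pecam1 (log2 fold change 2.16) is among the 11 and also among the endothelial markers given below. Sirpa, the receptor of the "do not eat me" signal CD47 and a protein of neurons too, had the smallest log2 fold change of this list, 1.09 ± 0.09, with 5812 ± 141 scaled reads in Input and 12410.1 ± 1392 in Positive. Fcgr2b (4.50), Cd33 (3.91) and Lair1 (4.03) were nearer the median. Passage of the read limit through Positive alone, which favours a higher call, applied to 1 of the 3 chains, 3 of the 7 receptors and 6 of the 11 inhibitory receptors.

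Of the regulators of Src-family activity beside Csk, 6 of 9 were higher and 1 lower, and the median was 0.39. Ptpra and Ptpre, phosphatases that can open Src-family kinases, had small log2 fold changes of 0.21 ± 0.08 (edgeR adjusted p-value 0.0445) and 0.39 ± 0.08 (0.00240). The call of Ptpra was lost under total count scaling and without Input 207, Input 208 or Positive 207 (edgeR adjusted p-values 0.127 to 0.176). Ptpn11, a widely expressed phosphatase, was not called (0.08 ± 0.08, adjusted p-value 0.448). By contrast Ptpn6, a phosphatase that ITIM receptors recruit, had a log2 fold change of 4.88 ± 0.16, Ptprc (CD45) one of 3.37 ± 0.21, and Pag1, a membrane anchor of Csk, one of 1.90 ± 0.14. These 3 were named after their values were seen.

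Of the adaptor and scaffold genes, 16 of 19 were higher and 0 lower, with a median of 1.73. Grb2, which links receptors to Ras, was higher by a log2 fold change of 0.70 ± 0.08, the scaffold Gab2 by 1.43 ± 0.13 and the ubiquitin ligase Cbl by 0.42 ± 0.10. Nck2, an adaptor to the actin machinery, was not called (-0.18 ± 0.12, edgeR adjusted p-value 0.222). In the list of exchange factors and Rac GTPases, 7 of 11 genes were higher and 1 was lower, with a median of 0.40. Rac1, the widely expressed GTPase, had a log2 fold change of 0.40 ± 0.08, Elmo1 one of 1.48 ± 0.12 and Tiam1 one of 0.37 ± 0.08, while the kinase Pak1 was not called (0.18, adjusted p-value 0.0969). Rac3, the neuronal GTPase, was lower with -0.36 ± 0.14 (edgeR adjusted p-value 0.0426), and this call was lost without Input 207, Input 208, Positive 201 or Positive 207 (adjusted p-values 0.0750 to 0.200). Rac2, the GTPase of blood cells, was named after its values were seen and had a log2 fold change of 3.85 ± 0.25. Of the reads per kilobase of the 3 Rac genes it took 1.09 ± 0.45% in Input and 12.0 ± 2.12% in Positive, while Rac1 took 77.2 ± 2.11% and 75.4 ± 2.07%.

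Of the phospholipase C, phosphoinositide kinase and phosphatase genes, 9 of 10 were higher and 0 lower, with a median of 0.99. Inpp5d, the lipid phosphatase SHIP1 that opposes this relay, averaged 149.8 ± 20.1 scaled reads in Input against 3454 ± 793 in Positive, a log2 fold change of 4.52 ± 0.17. Pik3r1, the regulatory subunit of phosphoinositide kinase, had one of 0.65 ± 0.09 and Plcg1 one of 0.51 ± 0.09, while the catalytic subunit gene Pik3ca was not called (0.17 ± 0.07, edgeR adjusted p-value 0.0868). Plcg2, the phospholipase that Btk activates in myeloid and B cells, had one of 3.38 ± 0.16 and was named after its values were seen. Its share of the Plcg1 and Plcg2 reads per kilobase was 12.8 ± 1.03% in Input and 51.5 ± 3.30% in Positive. Further downstream, 5 of 10 kinases and Card9-complex genes were higher and 0 lower, with a median of 0.59. Prkcd, a protein kinase C that Syk signalling activates, had a log2 fold change of 1.77 ± 0.17. Prkce, Prkcb and Rasgrp1, abundant in neurons, were not called (log2 fold changes 0.18, 0.22 and 0.17, adjusted p-values in edgeR 0.165, 0.0694 and 0.141).

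Several of these genes are also used by cells other than microglia, so markers of the other cells that the pull-down could hold are given beside them. Border macrophage markers were higher for 7 of 7 genes, 3 of which (Lyve1, Pf4 and Ms4a7) passed the read limit through Positive alone, with a median log2 fold change of 4.15, and their summed scaled reads ran from 197 to 254 in Input and from 2635 to 5769 in Positive. The 8 microglial markers summed to between 4383 and 4714 in Input and to between 82462 and 120946 in Positive. Of 6 B-cell markers, Cd79b and Ighm were tested and both were higher, with summed scaled reads of 152 to 189 in Input and 1348 to 1939.9 in Positive, and Ms4a1, Cd79a, Pax5 and Fcmr were not analysed here. Of 8 T and NK cell markers, Cd4 alone was tested, with 1.87 to 10.2 scaled reads in Input and 47.6 to 67.7 in Positive. Of 6 monocyte markers, Ly6c2 was higher, from 7.26 ± 5.06 to 22.5 ± 1.99 scaled reads, and Vcan was lower, and the other 4 were not analysed here. Like Btk, Cd79b, Cd4, Ly6c2 and the platelet gene Gp9 passed the read limit through Positive alone. None of 7 neutrophil markers was analysed here. Of 6 markers of mast cells and platelets 2 were tested, of which Gp9 was higher (log2 fold change 5.25) and Itga2b was not called. Endothelial markers were higher for 6 of 6 genes with a median of 1.97, and their median log2 ratio was 2.21, 2.23 and 1.17 in animals 201, 207 and 208. Mural markers were higher for 0 and lower for 1 of 6, astrocyte markers higher for 1 and lower for 2 of 7, and markers of oligodendrocyte precursors lower for 4 of 4. None of the border macrophage, endothelial or microglial markers was at 0 in any library. The part of these other cells in the levels of the 8 genes was not tested.

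Genes with the profile nearest to Syk and to Fyn over the 6 libraries were found by the root mean square difference of centred log2 values among 12114 genes. For Syk they were Ugt1a7c (0.070), Elf4 (0.077) and Akna (0.091), with log2 fold changes of 3.72, 3.54 and 3.50. For Fyn they were the cannabinoid receptor gene Cnr1 (0.012), Fam217b (0.013) and the sodium pump subunit gene Atp1b1 (0.016), with log2 fold changes of -0.13, -0.11 and -0.12. The likeness is a description over libraries that share their size factors.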

How the data were processed

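Hippocampal TRAP libraries (3 Input, 3 Positive) were directional and poly(A)-selected. The authors aligned read pairs to mm10 with Strand NGS 3.1 and deposited estimated counts (expected counts) per Ensembl gene, for genes that reached 20 raw reads throughout the libraries of either fraction. The deposited normalized columns, which were not used in tests, are log2 values scaled with DESeq and set relative to the Input median. How reads matching several genes and both mates of a pair were counted was not given in the sources used here. Among whole values under 60 reads, 64.7 to 69.3% per library were even, so fragments may be fewer than reads, which was not tested.

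Expected counts were rounded and tested in R 4.3.3 with the edgeR 4.0.16 quasi-likelihood test, without pairing, with median-of-ratios size factors, for genes above 20 scaled reads throughout the libraries of either fraction (44 genes removed). Benjamini-Hochberg adjustment ran over the 15344 genes tested, and genes were called under 0.05. Standard errors come from the F statistic, and 95% intervals are the log2 fold change ± 1.96 SE. Log2 ratios per animal used a pseudocount of 1. TPM was computed from merged exons of GENCODE M21, available for 15370 genes. Exact permutation tests used scipy 1.17.1. Intervals rest on the spread between libraries. Reads had no molecular identifiers, so copies made by amplification could not be told from separate fragments. The method was tested on simulated data.

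Animals were the replicates, and same-numbered libraries came from the same animal. Deviations from the fraction means correlated at 0.194, 0.0579 and 0.120 for same-animal pairs across genes and at -0.140 to 0.032 for the others. The genes and lists were chosen with earlier results of these data known. Some genes of the lists are not reported here and were left out of the counts and shares. Named beyond them were, per list, the 4 tested genes with the highest mean and up to 2 called against the list's median, and the 3 nearest profiles. Outside this rule, Lcp2, Vav2, Vav3, Ptpn6, Ptprc, Pag1, Rac2 and Plcg2 were named after their values were seen. The alternatives were TMM and total count scaling, DESeq2 1.42.0, no filter, a filter at 100 scaled reads, the animal as a block, leaving out each library, shares without length and pseudocounts of 0.1 and 10.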

Additional observations from a re-analysis of the deposited data

How the results depend on the processing

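The 6 calls of Syk, Btk, Lyn, Csk, Blnk and Vav1 were made under each alternative fit, and 0 genes of the 8 were called lower except that scaling by total count and leaving out Positive 208 each called 1, Fyn (range without 1 library 0 to 1). Total count scaling called 7320 genes, 41.6% of them higher, against 7054 and 52.2%, and moved the median of all genes from -0.01 to -0.09. The log2 fold change of Src turned to -0.054 under total count scaling and ran from -0.033 (without Positive 208) to 0.053 without 1 library, and that of Zap70 ran from -0.021 (without Positive 208) to 0.23, and none of these was called. Leaving out 1 library gave 5536 to 7256 genes called, 65 to 67 pathway genes higher and 0 to 3 lower. The mean log2 ratio of Btk was 4.01 with a pseudocount of 10, against 4.53. A filter at 100 scaled reads tested 12155 genes and 71 pathway genes, of which 56 were higher. The difference in the share of Yes1, -0.17 percentage points, ran from -0.37 to 0.0098 (without Input 208) when 1 library was left out, and the other shares kept their direction. With the animal as a block (the replicate block), 7566 genes were called and 67 pathway genes were higher, and no call among the 8 genes changed. About 20 reads per Input library, which may be fewer fragments, limit the precision of Btk.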

Other observations

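Ratios between levels of steps of the relay were taken within each library on the TPM scale. Syk relative to Tyrobp, the chain it docks on, was 0.056, 0.038 and 0.038 in the Input libraries of animals 201, 207 and 208 and 0.024, 0.028 and 0.029 in the Positive libraries. Syk relative to Lyn was 0.45, 0.22 and 0.24 in Input and 0.206, 0.214 and 0.207 in Positive, and the Input of animal 201 stood apart from the other Input libraries. Vav1 relative to Blnk was 3.09, 2.23 and 2.62 in Input and 6.57, 4.70 and 4.74 in Positive. The fractions did not overlap in these 3 ratios, but none passed a threshold of 0.05, which 3 against 3 libraries cannot reach (exact two-sided permutation p = 0.1 for each, and 0.1 after adjustment over 5 ratios).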
